A study of Mus musculus with 8 samples.

Results

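The genes described here encode heat shock proteins and J-domain proteins, the machinery that folds, refolds and transports proteins in the cell. They were chosen by symbol: names that begin with Hsp followed by a letter from a to e, an h or a digit, and names of the Dnaja, Dnajb and Dnajc series, without Hspg2 and without rows marked as pseudogenes by -ps. The rule found 73 of the 38392 genes in the table, 28 with Hsp names and 45 with Dnaj names, and left out 11 rows marked -ps. The rule reads names and no expression value. Of the 73 genes, 63 had a mean of at least 10 reads over the 8 libraries and 10 did not.

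RNA was sequenced from eosinophils of wildtype C57/BL6 mice, with 4 libraries from bone marrow and 4 from small intestine, to ask how these granulocytes differ between the site where they form and a tissue where they reside. The mice of these libraries were female by the study's account, and mice are its replicates. It states an age range only for its mice as a whole, and the labels name no treatment beyond the sort. Bone marrow cells were sorted as CD11b+Ly6G-Ly6C-SiglecF+SSChi and small intestinal cells as CD11b+MHC-II-SiglecF+SSChi. Small intestinal tissue was digested at warm temperature and enriched on CD11b beads before the sort, whereas marrow was flushed and went to the sort without either step, so tissue and handling cannot be told apart.

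Reads in genes numbered between 11508002 and 21289164 per library. The bone marrow libraries went against their label in part: 9 transcripts of neutrophil precursors, among them Mpo (myeloperoxidase) and Elane (neutrophil elastase), summed to between 465989 and 601345 normalised counts there and to between 692 and 996 in small intestine. The 8 eosinophil markers summed to between 2471 and 3759 in bone marrow and to between 33540 and 46269 in small intestine, where 5 of them were higher and 3, the granule protein genes Prg2, Epx and Prg3, were lower. Epithelial markers were higher in small intestine for 9 of 9 genes, with sums between 4597 and 31571 against 54.5 to 105 in bone marrow, and SI_6 had the highest sum. Early response genes that are known to rise during tissue dissociation (Fos, Jun, Egr1 and others, none of them a heat shock gene) were higher in small intestine for 14 of 14, with sums between 97653 and 130425 against 1207 to 1663. Macrophage and dendritic markers were higher for 8 of 8 genes (15884 to 25430 against 813 to 1036) and pancreatic acinar markers for 6 of 6, with the highest sum in SI_7 (43365), while erythroid markers were lower for 6 of 6 (43.9 to 89.5 against 820 to 1042). Of the macrophage and dendritic sums, Adgre1 alone gave 12440 to 15500 in small intestine and 132 to 179 in bone marrow. The study used EMR1, the product of its human counterpart, to identify human eosinophils, so Adgre1 need not mark macrophages. None of these markers was at 0 in all libraries of a tissue. The part of these cell types and of handling in the results below was not tested. In such bulk samples, fewer cells of a type and less RNA per cell cannot be told apart.

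HSP70 proteins bind exposed hydrophobic stretches of unfolded proteins in a cycle driven by ATP. J-domain proteins deliver clients to HSP70 and trigger its ATPase, nucleotide exchange factors reset it, and HSP90 completes the folding of kinases and hormone receptors. Each compartment has its own set: Hspa8 and the stress-induced Hspa1a and Hspa1b in the cytosol, Hspa5 (BiP) and Hsp90b1 (GRP94) in the endoplasmic reticulum (ER), and Hspa9 (mortalin) with the Hspd1 and Hspe1 folding chamber in mitochondria. In the cytosol heat shock factor HSF1 switches on the inducible genes through heat shock elements in their promoters, and in the ER the unfolded protein response acts through ER stress elements.

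Promoter sequence shows which of these genes carry the elements that the families are known for. RefSeq windows on build GRCm38.p6, from 250 bases before to 50 bases after an annotated start, were found for 59 of the 73 genes. They were searched on both strands for heat shock elements (alternating GAA and TTC units with 2 bases between them) and for the ER stress element (CCAAT, 9 bases, CCACG). The stretches below are examples from genes that are described below for the cytosol, the mitochondria and the ER. Heat shock elements not printed include those before the starts of Dnaja1 and Dnajb4 (higher in small intestine), Hspb6 and Dnajc10 (lower) and of genes not called. Capitals mark the fixed letters of the element.
Hspa1a (chr17:34972248-34972265, minus strand): tgctgGAAgaTTCctggc
Hspa1b (chr17:34959330-34959347, minus strand): tgctgGAAgaTTCctggc
Hspb1 (chr5:135887797-135887814, plus strand): caagaGAAgtTTCcagat
Hspb1 (chr5:135887817-135887834, plus strand): gggcaGAAccTTCctggc
Dnajb6 (chr5:29735847-29735869, plus strand): tccgaGAAtcTTCcgGAAcgcta
Hspe1 (chr1:55088054-55088081, plus strand): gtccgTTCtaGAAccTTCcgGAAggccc
Hspa5 (chr2:34772020-34772048, plus strand): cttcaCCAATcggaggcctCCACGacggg
Hsp90b1 (chr10:86705633-86705661, minus strand): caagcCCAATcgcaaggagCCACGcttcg
Hsp90b1 (chr10:86705528-86705556, minus strand): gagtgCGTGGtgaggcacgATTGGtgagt
Dnajc3 (chr14:118937822-118937850, plus strand): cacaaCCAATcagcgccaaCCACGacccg
The Hspe1 stretch also lies in the window of Hspd1, which is read from the opposite strand and whose annotated start is 111 bases away. The 3-unit heat shock element, GAANNTTCNNGAA or TTCNNGAANNTTC, was found for 4 of 59 genes (6.78%), Dnajb6, Hspd1, Hspe1 and Hsph1, against 0.662% of all 27025 genes with a window (0.603% of 32851 windows). Of these 4 genes, 1 was higher in small intestine, 2 were lower and 1 was not called. Of all 59 genes with a window, 12 were higher, 19 lower and 28 not called. The 2-unit form GAANNTTC, which also lies within every 3-unit element, was found for 14 of 59 genes (23.7%), against 9.04% of all genes (7.86% of windows), and 6 of the 14 were higher, 3 lower and 5 not called. The other 2-unit order, TTCNNGAA, which lies within every 3-unit element too, was found for 6 of 59 genes (10.2%), against 9.6% of all genes (8.52% of windows). Of these 6, 2 were higher, 3 lower and 1 not called. The ER stress element was found for Dnajc3, Hsp90b1 and Hspa5 (5.08%), against 0.137% of all genes (0.119% of windows). ER stress element II (ATTGG, 1 base, CCACG) was found for Dnajb11, after its start, against 0.0444% of all genes (0.0365% of windows). A match is a description of the letters and not evidence of a bound site.

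Across the 73 genes, 13 were higher and 25 lower in small intestine, and 35 did not pass the test. Values were compared on the deposited log2 scale with limma, and a gene was called higher or lower where its p, adjusted over all 38392 genes, was under 0.05. Of all genes, 22% were called higher and 12.9% lower, so 17.8% of the chaperone genes called higher lay near the background and 34.2% called lower lay above it. Among the 63 genes that averaged at least 10 reads, 10 were higher (15.9%) and 25 lower (39.7%), against 34.6% and 28.6% of the 16215 genes at that level. That minimum can be passed through 1 tissue alone, so these shares are a description. The values of the 2 tissues did not overlap for 17 genes with small intestine above and 29 with small intestine below, while 20.3% and 13.9% of all genes did so in those directions. The median difference, small intestine minus bone marrow, was -0.38 over the 73 genes and 0.37 over all genes.

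Together the 73 genes took 0.819%, 0.871%, 0.911% and 0.925% of the reads in the bone marrow libraries BM_1, BM_3, BM_4 and BM_5. In the small intestine libraries SI_10, SI_11, SI_6 and SI_7 they took 0.432%, 0.442%, 0.480% and 0.434%. Every small intestine library lay below every bone marrow library, averaging 0.447% ± 0.023 against 0.881% ± 0.048 (SD, n = 4 each). Of the 10 genes with the highest level per kb of exon in bone marrow, 7 were lower in small intestine, 3 were not called and 0 were higher. Of the 10 with the highest level in small intestine, 5 were lower, 3 were not called and 2 were higher. The 13 genes that were higher had medians of 14.8 (bone marrow) and 99.8 (small intestine) normalised counts, and the 25 that were lower had medians of 670 and 225 (normalised counts are reads corrected for library size by a size factor). The level in either tissue is part of the difference that was tested, so these counts and medians are a description. When each library was instead centred on the median of all genes, which shifted the median difference of all genes from 0.37 to -0.53, 7 of the 73 were higher and 40 lower. That moved the share of higher among the called from 34.2% to 14.9% for the 73 genes and from 63.2% to 29.5% for all genes, of which 11.2% were then called higher and 26.6% lower. The counts were 13 and 28 without BM_5 and SI_6, left out because SI_6 had the highest epithelial sum of all libraries and BM_5 the highest in bone marrow.

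**Figure D1:**
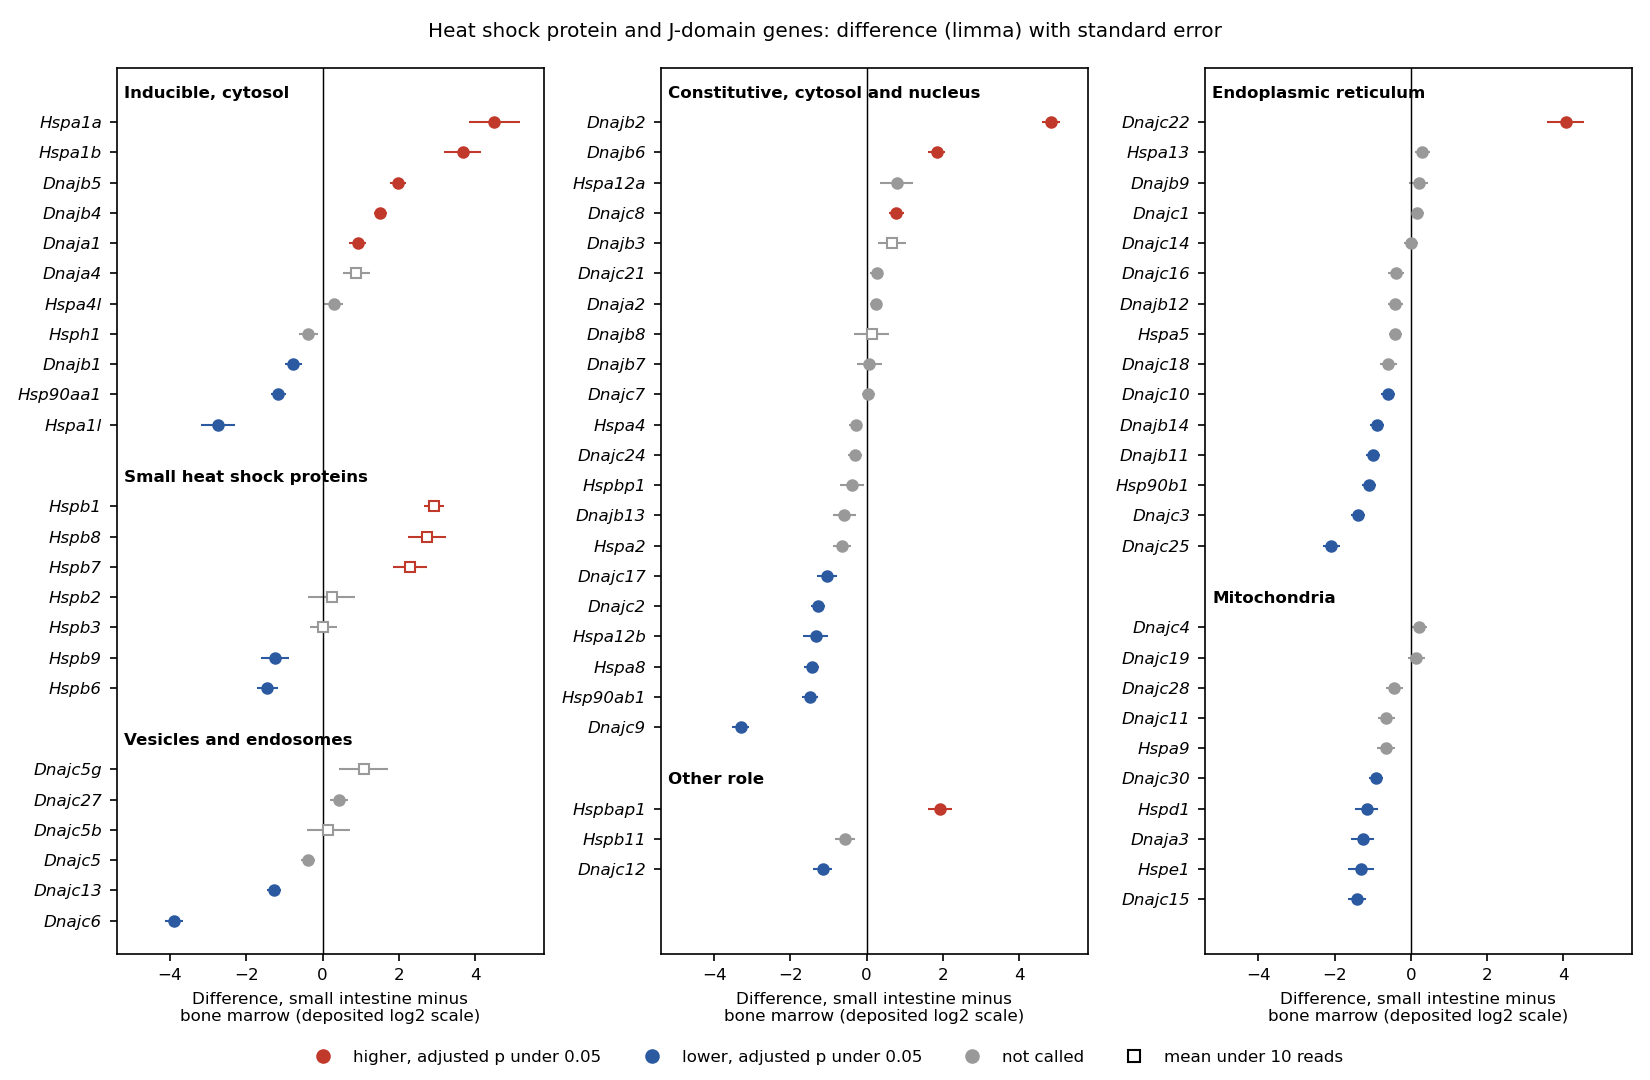
Difference between tissues for each of the 73 genes, in panels by compartment (points, limma estimate on the deposited log2 scale with bone marrow subtracted; bars, standard error; 4 libraries per tissue). Red points were called higher, blue points lower and grey points not called, and open squares had a mean under 10 reads. Red points reach 4.83 for Dnajb2, and none lies in the mitochondrial group.

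Of 11 genes listed as inducible chaperones of the cytosol, 5 were higher, 3 lower and 3 not called. These are 45.5% higher and 27.3% lower, against 22% and 12.9% of all genes. Of the 10 that averaged at least 10 reads, 50% were higher and 30% lower, against 34.6% and 28.6% of all genes at that level. The summed level of all 11 per kb of exon went down, from 2563 ± 328 to 1876 ± 75.2 in small intestine (SD), without overlap. Hsp90aa1 alone had 1805 per kb in bone marrow and 808 in small intestine. The 3 lower genes were Hsp90aa1, Dnajb1 and Hspa1l, and Hspa1l is not known as a stress-induced gene. Hspa1a and Hspa1b, the stress-induced HSP70 genes, were nearly silent in bone marrow and detected in every small intestine library. Hspa1a had 0, 0, 3.83 and 12.1 normalised counts in the bone marrow libraries (in the order BM_1, BM_3, BM_4, BM_5, kept below). It had 67.8, 98.4, 122 and 111 in the small intestine libraries (in the order SI_10, SI_11, SI_6, SI_7). The groups did not overlap, and the difference was 4.50 ± 0.67 (SE, as for all differences below; adjusted p = 0.000965). Hspa1b had 1.53, 0.652, 8.61 and 10.2 in bone marrow and 66.7, 99.6, 117 and 73.5 in small intestine. It too showed no overlap, with a difference of 3.67 ± 0.48 (adjusted p = 0.000479). The pair lies on chromosome 17 (34969190 to 34972156 and 34956436 to 34959238, both on the minus strand). Their coding sequences of 1926 and 1929 bases were 98.13% identical, with a longest identical run of 638 bases, and 247 of the 250 bases before their starts matched. Reads that match both can therefore be assigned to either gene or dropped, and how they were counted is not given. Their sum does not depend on how such reads were split, but it would miss any that were dropped. It averaged 9.23 ± 10.2 in the 4 marrow libraries and 189 ± 43.1 in the 4 intestinal ones (SD).

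Hspa1l, the HSP70 gene best known from the testis, went the other way although its annotated start lies 547 bases from that of Hspa1a. It had 23.0, 15.0, 10.5 and 23.2 normalised counts in bone marrow and 0, 1.19, 3.27 and 0 in small intestine, with no overlap (difference -2.73 ± 0.45, adjusted p = 0.00157). It shares 1778 exonic bases with Gm10501, and with the strand setting of the counting not given its reads are uncertain. Hspa1a shares 564 with Gm20481 in the same way.

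Of the 5 J-domain genes in the inducible group, 3 rose. Dnaja1, a farnesylated partner of cytosolic HSP70, had 2530, 2453, 1873 and 2848 normalised counts in bone marrow and 5443, 5216, 3455 and 4321 in small intestine. It shares 608 exonic bases with Smu1 and 249 with Gm6297, so its reads are uncertain. Every small intestine value was above every bone marrow value, with a difference of 0.92 ± 0.23 (adjusted p = 0.0139). This call was lost under 3 scalings, with 0.02 when libraries were centred on the median of all genes (adjusted p = 0.979), 0.49 under quantile normalisation (0.106) and 0.85 when centred on genes with at least 10 reads (0.0514). Dnajb4 rose by 1.52 ± 0.18 (adjusted p = 0.000293) and Dnajb5 by 1.98 ± 0.21 (adjusted p = 0.00015), both relatives of Dnajb1, and centring on the median of all genes ended both calls (0.62 and 1.08, adjusted p = 0.298 and 0.055). Dnajb1 itself, the classical heat-induced HSP40, was lower: it had 719, 762, 522 and 677 normalised counts in bone marrow and 347, 423, 477 and 329 in small intestine. The highest small intestine value lay below the lowest bone marrow value, the difference was -0.76 ± 0.22 (adjusted p = 0.0245), and the call was lost without BM_1 (adjusted p = 0.0653) or BM_3 (0.0578).

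The remaining stress-induced genes were lower or not called. Hsp90aa1, the inducible cytosolic HSP90, had 7018, 7707, 5714 and 7939 normalised counts in bone marrow and 2714, 2919, 3396 and 3675 in small intestine. All 4 small intestine libraries lay below bone marrow (difference -1.16 ± 0.20, adjusted p = 0.0022). Hsph1, an HSP110 that exchanges nucleotide on HSP70 and carries the 3-unit element after its start, had 527, 783, 839 and 1004 against 506, 661, 694 and 534, and the groups overlapped (difference -0.37 ± 0.25, adjusted p = 0.294). Hspa4l, another HSP110, and Dnaja4 were not called either, at 0.29 and 0.89, and Dnaja4 had fewer than 10 reads on average.

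Of 7 small heat shock proteins, which hold unfolded proteins in a soluble state without ATP, 3 were higher, 2 lower and 2 not called. That is 42.9% higher and 28.6% lower, against 22% and 12.9% of all genes. Their levels were low, and 5 of the 7 had a mean under 10 reads, among them all 3 that were higher. The 2 with a mean of at least 10 reads were both lower, while 28.6% of all genes at that level were lower and 34.6% higher. Hspb1 (HSP25 in mouse), which carries the pair of 2-unit elements shown above, had no read in any bone marrow library. It had 15.3, 13.0, 12.0 and 5.55 normalised counts in small intestine. Its difference on the deposited scale was 2.93 ± 0.26 (adjusted p = 5.26e-05), where bone marrow values without a read do not vary. Set against a floor of 3 reads over the bone marrow group, Hspb1 was at least 19-fold higher in small intestine, a bound without a test. Hspb8, which works with BAG3 in selective autophagy, had 0, 0, 0 and 2.79 in bone marrow and 12.0, 7.11, 30.6 and 11.1 in small intestine, again without overlap (difference 2.74 ± 0.49, adjusted p = 0.00251). Hspb7, a heart and muscle form, rose by 2.29 ± 0.44 (adjusted p = 0.00375), a call lost under quantile normalisation (1.32, adjusted p = 0.0882). Hspb6, whose window also holds a 2-unit element, went down, from 154, 167, 116 and 118 in bone marrow to 44.9, 30.8, 69.9 and 52.7 in small intestine, without overlap (difference -1.45 ± 0.27, adjusted p = 0.00326). Hspb9 fell by 1.24 ± 0.36 (adjusted p = 0.0277), but SI_7 lay within the bone marrow range and the call was lost in 9 of 16 alternative settings (adjusted p between 0.0518 and 0.144). The median difference of the list was 0.24, also with Hspb1 set at its bound.

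In the constitutive group of the cytosol and nucleus, the 2 genes with the highest level per kb fell and 3 J-domain genes rose. Of 21 genes, 3 were higher, 6 lower and 12 not called. Among the 19 that averaged at least 10 reads, 15.8% were higher and 31.6% lower. Of all genes at that level 34.6% were higher and 28.6% lower, so the share of this list that fell lay near the background. Hsp90ab1, the constitutive HSP90, had the highest level per kb of all 73 genes in bone marrow. It had 19284, 19979, 20260 and 18015 normalised counts in bone marrow and 5254, 7357, 9206 and 6343 in small intestine. No small intestine library came near bone marrow, and the difference was -1.49 ± 0.22 (adjusted p = 0.000852). Hspa8 (HSC70), the housekeeping HSP70, had 9944, 10140, 12831 and 11153 in bone marrow and 3451, 4406, 4732 and 3633 in small intestine. The groups did not overlap (difference -1.45 ± 0.20, adjusted p = 0.000593). Its annotated exons overlap 3 small nucleolar RNA genes.

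Dnajb2, a J-domain protein that binds ubiquitin and hands clients to the proteasome, had the largest rise of the 73 genes on the deposited log2 scale. In a fit to recovered reads (voom), Hspa1a (5.92) and Dnajc22 (5.83) rose more than Dnajb2 (5.04). Dnajb2 had 18.4, 19.6, 26.8 and 19.5 normalised counts in bone marrow and 791, 855, 506 and 678 in small intestine. Small intestine lay far above bone marrow in every library, with a difference of 4.83 ± 0.23 (adjusted p = 2.34e-06). Dnajb6, which keeps aggregation-prone proteins soluble and carries the 3-unit element shown above, had 422, 509, 312 and 391 against 1676, 1636, 1088 and 1455 (difference 1.83 ± 0.23, adjusted p = 0.000417). Its groups did not overlap, and centring on the median of all genes ended the call (0.93, adjusted p = 0.104). Dnajc8, linked to splicing, rose by 0.78 ± 0.19 (adjusted p = 0.013), and centring on the median of all genes turned its sign (-0.12, adjusted p = 0.855).

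Among the genes of this list that fell, Dnajc9 had the largest difference. Dnajc9 encodes a histone chaperone that recruits HSP70 during nucleosome assembly. It had 1417, 1352, 987 and 1270 normalised counts in bone marrow and 102, 132, 159 and 107 in small intestine, without overlap (difference -3.30 ± 0.22, adjusted p = 1.33e-05). Dnajc2, the J-domain partner of HSP70 on the ribosome, fell by 1.28 ± 0.18 (adjusted p = 0.000714), Dnajc17 by 1.04 ± 0.26 and Hspa12b by 1.34 ± 0.33 (adjusted p = 0.0144 and 0.0123). The call of Hspa12b was lost without BM_5 and SI_6 together (adjusted p = 0.0783). The genes not called included Hspa4 (-0.29) and Hspa2 (-0.65) with small intestine below bone marrow in every library, Dnaja2 (0.24) and Dnajc21 (0.27) with small intestine above in every library, and Dnajc7 (0.05), whose groups overlapped. Dnajb3, Dnajb8, Dnajb7, Dnajb13, Dnajc24, Hspa12a and Hspbp1 were the others not called, at 0.67, 0.13, 0.07, -0.59, -0.30, 0.78 and -0.38. Dnajb3 and Dnajb8 had a mean under 10 reads.

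**Figure D2:**
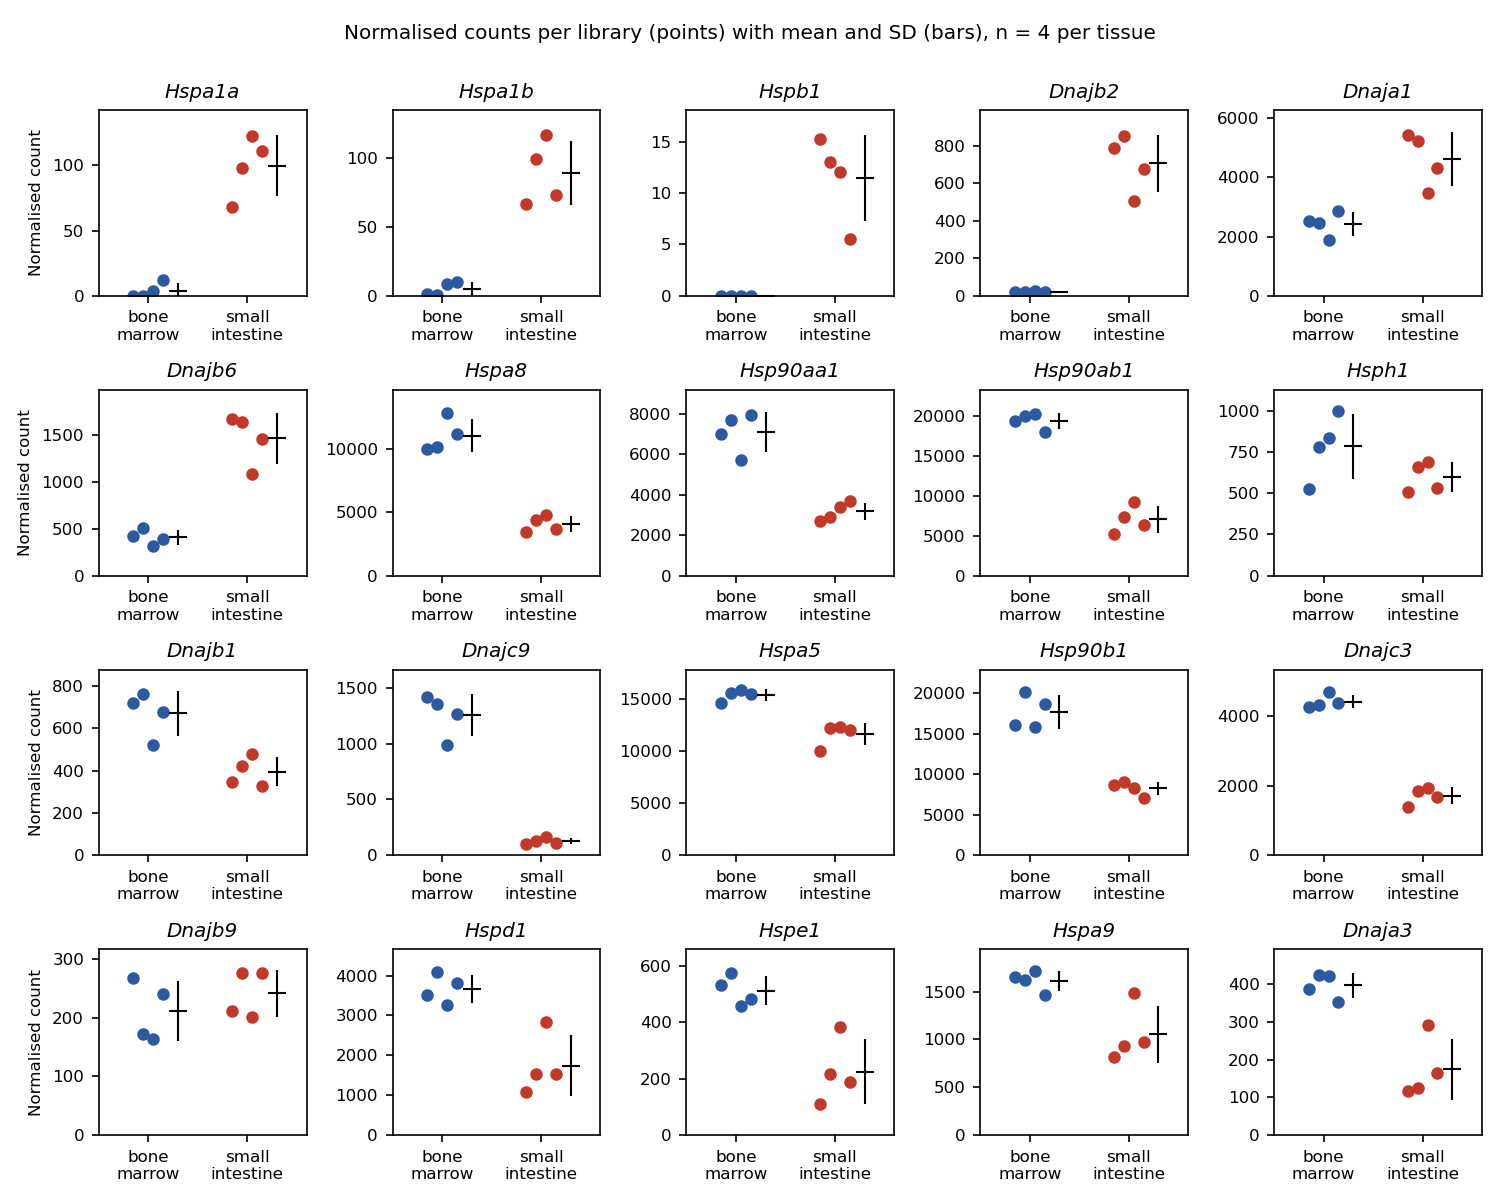
Normalised counts of 20 genes in each library, with a linear axis from 0 for each gene (blue points, BM_1, BM_3, BM_4 and BM_5 from left to right; red points, SI_10, SI_11, SI_6 and SI_7; black bars, mean and SD). Hspa1a, Hspa1b, Hspb1, Dnajb2, Dnaja1 and Dnajb6 lie higher in small intestine, while the groups overlap for Hsph1, Dnajb9 and Hspa9.

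ER chaperones were lower for 6 of 15 genes, higher for 1 and not called for 8. All 15 averaged at least 10 reads. Their shares were 40% lower and 6.67% higher, against 28.6% and 34.6% of all genes at that level. Hspa5 (BiP), the ER HSP70 and sensor of unfolded protein, was not called. It had 14576, 15548, 15806 and 15494 normalised counts in bone marrow and 10039, 12178, 12251 and 12010 in small intestine. The groups did not overlap, but the difference of -0.41 ± 0.17 missed the threshold (adjusted p = 0.103), and it passed in 9 of 16 alternative settings with the same sign, with adjusted p between 4.33e-05 and 0.0446. Hsp90b1 (GRP94), which folds integrins and Toll-like receptors, had 16061, 20220, 15858 and 18739 in bone marrow and 8635, 8998, 8286 and 7111 in small intestine. It was lower in all 4 small intestine libraries (difference -1.10 ± 0.19, adjusted p = 0.00187).

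Of 3 J-domain helpers of BiP, Dnajb11 and Dnajc3 fell and Dnajb9 was not called. Dnajb11, which binds unfolded clients in the ER, had 1925, 2187, 1870 and 1938 normalised counts in bone marrow and 880, 1101, 1045 and 964 in small intestine, without overlap (difference -0.99 ± 0.18, adjusted p = 0.00238). Dnajc3 (p58IPK), which also inhibits the kinase PERK, had 4250, 4324, 4686 and 4383 against 1384, 1857, 1921 and 1670 (difference -1.38 ± 0.18, adjusted p = 0.000544). For Dnajc3 too the groups lay apart. Dnajb9 (ERdj4), which holds IRE1 inactive through BiP, had 268, 173, 164 and 241 against 212, 276, 201 and 276, and the groups overlapped (difference 0.20 ± 0.24, adjusted p = 0.519). The 3 genes that carry the ER stress element had differences of -1.38 (Dnajc3), -1.10 (Hsp90b1) and -0.41 (Hspa5).

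Other ER members that fell were Dnajc25, Dnajb14 and Dnajc10. Dnajc25 had 259, 253, 232 and 271 normalised counts in bone marrow and 41.6, 54.5, 79.7 and 56.9 in small intestine, without overlap (difference -2.09 ± 0.22, adjusted p = 0.000161). It shares 348 exonic bases with Gm20503, so its reads are uncertain. Dnajb14, which clears membrane proteins from the ER, fell by 0.88 ± 0.18 (adjusted p = 0.00565), and Dnajc10 (ERdj5), a disulphide reductase, by 0.61 ± 0.19 (adjusted p = 0.0343). The call of Dnajc10 was lost without BM_1, BM_3 or BM_4 (adjusted p = 0.0725, 0.0508 and 0.0863). Dnajc22, a little-studied membrane J-domain protein, was the 1 member of the list that rose. It had 0, 0.652, 0 and 0.930 in bone marrow and 24.1, 24.9, 110 and 36.1 in small intestine, with the highest value in SI_6, the library with the highest epithelial sum (difference 4.06 ± 0.49, adjusted p = 0.0003). Without SI_6 its difference was 3.60 (adjusted p = 0.000292). Dnajb12, Dnajc1, Dnajc14, Dnajc16, Dnajc18 and Hspa13 were not called, with differences of -0.40, 0.17, 0.00, -0.39, -0.59 and 0.30.

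Mitochondrial chaperones were lower for 5 of 10 genes, and 0 were higher. All 10 averaged at least 10 reads, and the 50% that were lower compare with 28.6% of all genes at that level. Hspd1 (HSP60), which forms the folding chamber of the matrix, had 3507, 4082, 3252 and 3805 normalised counts in bone marrow and 1082, 1527, 2836 and 1531 in small intestine. The groups did not overlap, and SI_6 stood highest in small intestine (difference -1.15 ± 0.30, adjusted p = 0.016). Hspe1 (HSP10), the lid of that chamber, had 532, 577, 459 and 483 in bone marrow and 111, 217, 384 and 190.0 in small intestine, again with SI_6 highest (difference -1.30 ± 0.35, adjusted p = 0.0195). This call was lost without BM_1, BM_3 or SI_7, at adjusted p between 0.0532 and 0.0592. The annotated first exons of the pair overlap by 112 bases. The ratio of Hspe1 to Hspd1 per kb averaged 0.251 ± 0.018 in the marrow and 0.226 ± 0.031 in the intestine (SD, 4 libraries each), and these ranges overlapped.

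Hspa9 (mortalin), the HSP70 of the matrix, had 1657, 1620, 1711 and 1468 normalised counts in bone marrow and 819, 929, 1483 and 978 in small intestine. SI_6 lay within the bone marrow range, and the difference of -0.65 ± 0.23 missed the threshold (adjusted p = 0.0549). It passed in 10 of 16 alternative settings with the same sign, with adjusted p between 0.00216 and 0.0469, and without SI_6 it was -0.83 (adjusted p = 0.00344). Dnaja3 (TID1), its J-domain partner, had 387, 425, 421 and 351 in bone marrow and 117, 123, 292 and 164 in small intestine, without overlap (difference -1.26 ± 0.30, adjusted p = 0.0112). Dnajc15 fell by 1.41 ± 0.24 (adjusted p = 0.0021) and Dnajc30 by 0.90 ± 0.18 (adjusted p = 0.00459). Dnajc15 and Dnajc19 are related J-domain proteins of the import motor, and Dnajc19 was not called (0.14), nor were Dnajc4 (0.23), Dnajc11 (-0.65) and Dnajc28 (-0.44).

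The summed level of the 10 mitochondrial genes per kb was 2028 in SI_6 and 966, 1257 and 1258 in SI_10, SI_11 and SI_7, against 2360 to 2728 in bone marrow. Among small intestine libraries SI_6 also had the highest sums of epithelial (31571), macrophage and dendritic (25430), fibroblast (724), plasma and B (2635) and erythroid markers (89.5), and the lowest sum of eosinophil markers (33540). The plasma and B list ranged from 422 to 2635 in small intestine and from 203 to 313 in bone marrow, with 1 of 5 genes higher and 1 lower. The part of these cell types in the mitochondrial values was not tested. Without SI_6 the differences of Hspd1, Hspe1 and Dnaja3 were -1.42, -1.60 and -1.54 (adjusted p = 0.00127, 0.00328 and 0.000645), each larger than with it.

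**Figure D3:**
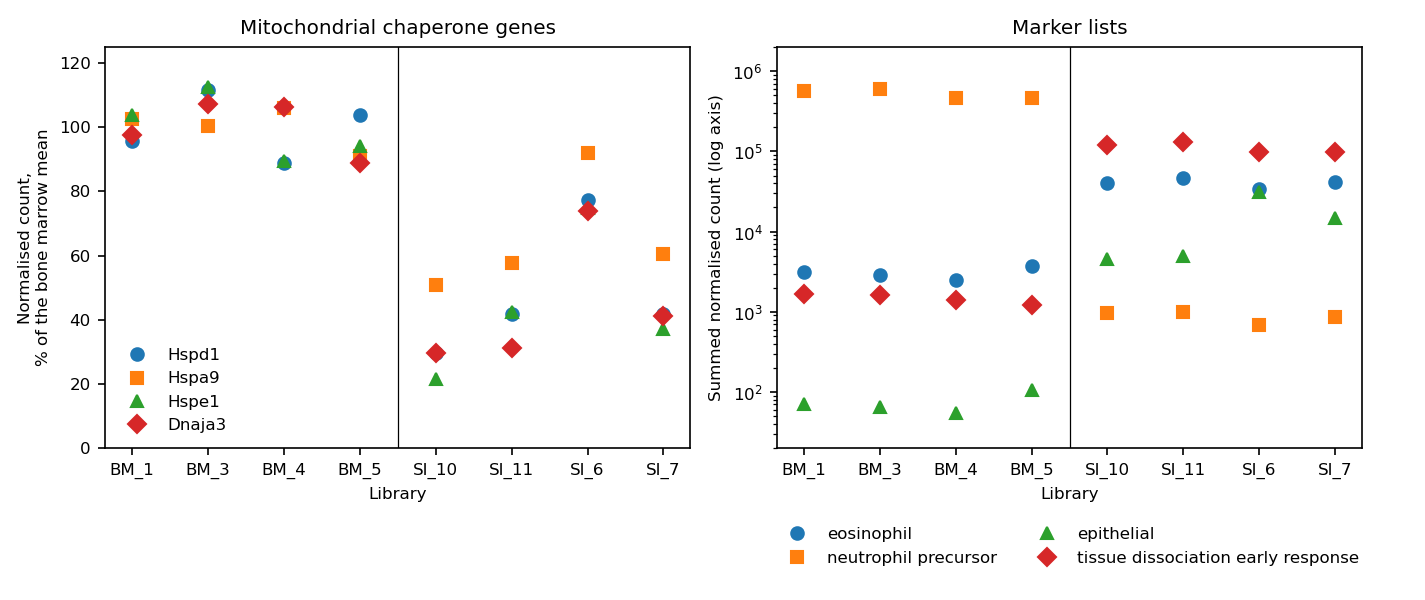
Left, normalised counts of 4 mitochondrial chaperone genes in each library as a percentage of the gene's mean in bone marrow. Right, summed normalised counts of 4 marker lists in each library on a log axis. SI_6 is the highest small intestine library for the 4 genes and for the epithelial list (31571), while neutrophil precursor sums lie between 465989 and 601345 in bone marrow.

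The J-domain proteins of vesicles and endosomes were lower for 2 of 6 genes, and 4 were not called. That is 33.3% lower, against 12.9% of all genes. Dnajc6 (auxilin), which uncoats clathrin vesicles with HSC70, had the largest fall of the 73 genes on the deposited log2 scale. It had 644, 650.2, 623 and 500.2 normalised counts in bone marrow and 47.0, 32.0, 26.2 and 45.8 in small intestine. The groups were far apart, with a difference of -3.90 ± 0.24 (adjusted p = 7.61e-06). Dnajc13 (RME-8), which acts on endosomes, fell by 1.28 ± 0.18 (adjusted p = 0.000686). Dnajc5, a chaperone of secretory vesicles, Dnajc27, Dnajc5b and Dnajc5g were not called, at -0.38, 0.44, 0.15 and 1.08, and the last 2 had a mean under 10 reads. Of the 3 remaining genes, which match by name but have another or no settled role, Hspbap1 rose by 1.91 ± 0.31 (adjusted p = 0.00163, but 1.01 and 0.0762 when centred on the median of all genes), Dnajc12 fell by 1.15 ± 0.25 (adjusted p = 0.00675) and Hspb11, a part of the intraflagellar transport machinery, was not called (-0.57).

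The make-up of the HSP70 family was read from levels per kb of exon, as a description without a test. Hspa5 made up 54.5%, 55.9%, 51.3% and 54.1% of the summed level of 10 HSP70 genes in bone marrow and 66.5%, 66.4%, 63.6% and 68.3% in small intestine. For Hspa8 the share averaged 22.6% ± 1.69 in the intestine against 37.9% ± 2.28 in the marrow (SD, 4 libraries each). The ratio of Hspa5 to Hspa8 came to 1.49, 1.56, 1.25 and 1.41 in bone marrow and 2.96, 2.81, 2.63 and 3.36 in small intestine. For these 3 measures the groups did not overlap. The share of Hspa1a and Hspa1b together averaged 0.047% ± 0.052 in the marrow and 1.56% ± 0.21 in the intestine, again without overlap. Any reads of this pair that were dropped in counting are missing from it. The share of Hspa9 overlapped between groups, at 5.57% ± 0.44 and 5.83% ± 1.17.

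Shares within the HSP90 family overlapped between tissues. Hsp90ab1 made up 51.2% ± 3.74 and 44.7% ± 5.35 of its per-kb level in bone marrow and small intestine, Hsp90b1 34.6% ± 2.43 and 39.7% ± 5.47, and Hsp90aa1 14.2% ± 1.65 and 15.7% ± 2.58. Within the J-domain family, Dnaja1 made up 4.36% ± 0.77 of the summed per-kb level in the marrow and 10.2% ± 1.82 in the intestine, and Dnajb2 made up 0.077% ± 0.015 and 3.17% ± 0.57. In the same sum Dnajc3 made up 13.3% ± 0.88 and 6.37% ± 0.92. None of the 3 J-domain shares overlapped between tissues, and shares of a family cannot move independently of each other.

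**Figure D4:**
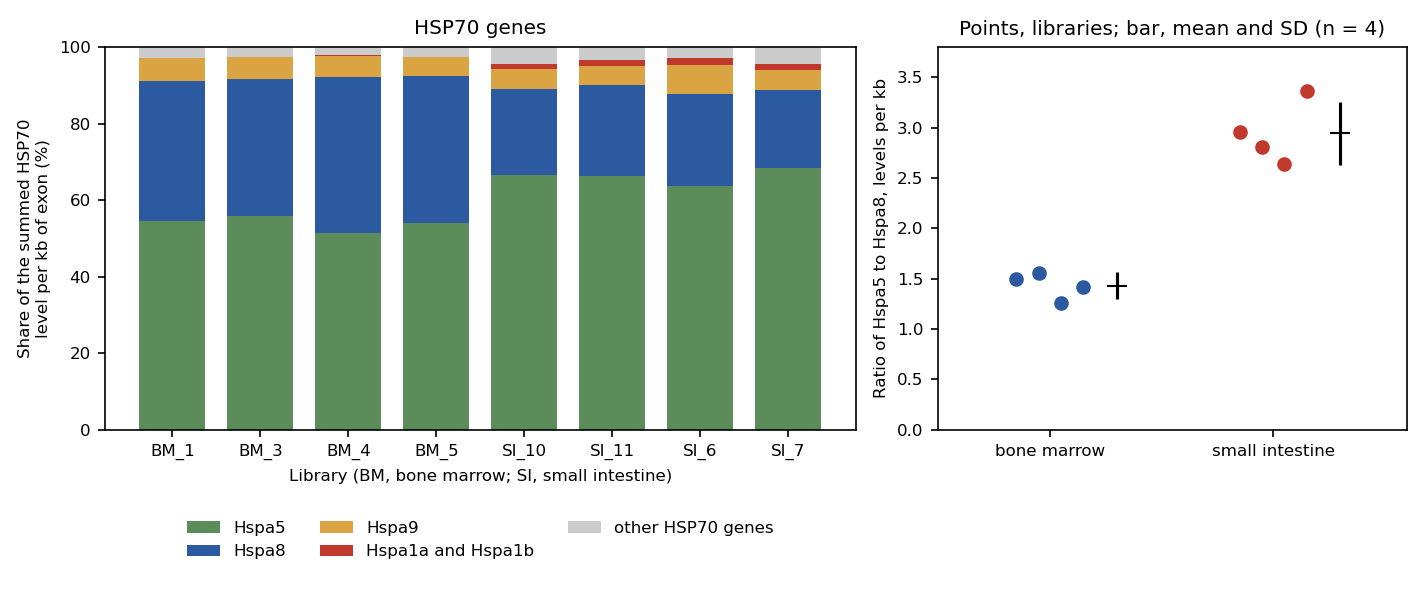
Left, the share of each gene in the summed level per kb of 10 HSP70 genes, 1 bar for each library (4 from bone marrow, BM, and 4 from small intestine, SI). Right, the ratio of Hspa5 to Hspa8 levels per kb in each library (points) with mean and SD (bars): all small intestine libraries lie at 2.63 or above and all bone marrow libraries at 1.56 or below.

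Partners of these chaperones outside the 2 families were read from 5 lists. Of 6 heat shock factor genes, Hsf1 was higher and Hsbp1, which encodes a binding protein of HSF1, was lower. Hsf1 had 689, 666, 614 and 576 normalised counts in bone marrow and 874, 948, 954 and 1102 in small intestine, without overlap (difference 0.60 ± 0.18, adjusted p = 0.0282). Centring on the median of all genes turned its sign (-0.30, adjusted p = 0.634), and its call was lost without BM_4 (0.064). Hsbp1 fell by 0.83 ± 0.22 (adjusted p = 0.0194), a call lost without BM_1 (0.052).

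Of 25 genes listed as cytosolic co-chaperones, 14 were lower, 2 higher and 9 not called. The list holds Serpinh1 and Cryab, which are chaperones of other kinds, and without them 14 of 23 were lower, 1 higher and 8 not called. The largest falls were those of Bag2, an exchange factor (-3.28 ± 0.42, adjusted p = 0.000449), Fkbp5, an immunophilin of the glucocorticoid receptor complex (-2.80 ± 0.19, adjusted p = 1.33e-05), and Ahsa1, the activator of the HSP90 ATPase (-1.85 ± 0.22, adjusted p = 0.000254). The 2 that rose were Unc45a, a myosin chaperone (2.39 ± 0.20, adjusted p = 4.11e-05), and Serpinh1 (HSP47), a collagen chaperone that resides in the ER. Serpinh1 had no read in bone marrow and 16.4, 5.93, 34.9 and 15.3 normalised counts in small intestine, at least 30-fold above a floor of 3 reads over the group. Fibroblast markers were higher in small intestine for 5 of 6 genes, with sums of 154 to 724 against 5.74 to 61.4, and their part in the Serpinh1 value was not tested.

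The TRiC chamber and prefoldin, which fold actin and tubulin, were lower for 9 of 14 genes and higher for 0. They were led by Cct6a (-1.83 ± 0.23), Tcp1 (-1.61 ± 0.20) and Cct5 (-1.51 ± 0.23), with adjusted p of 0.000373, 0.000319 and 0.00119. Of 19 ER partners, 12 were lower, 2 higher and 5 not called. The largest falls were those of Sdf2l1, a cofactor of BiP (-3.80 ± 0.20, adjusted p = 3.34e-06), Calr (calreticulin, -3.02 ± 0.26, adjusted p = 5.22e-05) and Hyou1, an exchange factor of BiP (-2.46 ± 0.22, adjusted p = 6.53e-05). The 2 that rose were transcription factors of the integrated stress response, Atf4 (1.37 ± 0.17, adjusted p = 0.000394) and Ddit3, also known as CHOP (0.97 ± 0.20, adjusted p = 0.00556). Centring on the median of all genes ended both calls, at 0.47 for Atf4 (adjusted p = 0.429) and 0.06 for Ddit3 (0.925). Mitochondrial partners were lower for 8 of 10 genes and higher for 0, led by Clpp (-1.63 ± 0.23), Grpel2 (-1.48 ± 0.30) and Clpb (-1.23 ± 0.23), with adjusted p of 0.000773, 0.00477 and 0.00328. The median difference was -0.93 for TRiC and prefoldin, -1.30 for ER partners, -1.02 for mitochondrial partners and -0.67 for the cytosolic co-chaperones, against 0.37 over all genes. Among genes that averaged at least 10 reads, 64.3%, 63.2%, 80% and 58.3% of these lists were lower, in that order. The share was 25% for the heat shock factors and 28.6% for all genes at that level.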

How the data were processed

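The authors aligned single-end reads of amplified cDNA to build GRCm38 (nf-core/rnaseq; aligner and strand setting not given in the sources used here) and transformed the counts with DESeq2. The deposited values are on a log2-like scale after variance stabilisation. Inverting it gave whole reads for 100% of values (tolerance 0.05 reads), from which read counts, size factors (0.721 to 1.53) and normalised counts were taken. Values per kb divide by the union of exons in GENCODE M21, which held all 73 genes. Of these, 28 share exonic bases with another gene, 16 of them called, and their reads are uncertain to that extent. The column names gave each library's tissue but no single sample, and libraries are named by column. No pair of libraries agreed within counting noise.

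Tissues were compared with limma 3.58.1 (R 4.3.3) on the deposited log2 values, with a constant prior and no covariate, 2-sided and adjusted by Benjamini-Hochberg over 38392 genes (threshold 0.05). The authors' DESeq2 count model was replaced because the deposited unit is log2. The study counts mice as replicates. The members and lists were chosen with earlier results of these data known. Values per library are given for 18 core members and for the 6 largest called rises and falls, and of each partner list the 3 largest called rises and falls are named. Alternatives were other priors, voom on the recovered reads, other scalings, a minimum of 10 reads, array weights and leaving out each library. Tables and figures were made in Python 3.11.15 (pandas 2.3.3, numpy 2.4.6, matplotlib 3.10.9). Proteins were not analysed here.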

Additional observations from a re-analysis of the deposited data

Results flagged for a closer look

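In 145 groups of 4 deposited values (1 gene in 1 tissue), the gap between the highest or lowest library and its nearest neighbour was divided by the range. It passed Dixon's critical limit for 4 values in 15 groups. The deposited values are corrected for library size, so a library set apart need not have the fewest or most reads. For Hspa5, SI_7 had 8660 reads and SI_10, with the lowest deposited value, had 9177. Chance alone passes it in about 1 group of 20, which is 7.25 of 145. In 6 of the 15, no library had 10 reads: BM_5 was highest in bone marrow for Hspb3, Dnajb8, Dnajb3, Dnajc5g and Hspb8, and SI_6 was highest in small intestine for Hspb3, each at 1 because the other 3 libraries had 0 reads. Among the other 9, BM_5 was lowest in bone marrow for Dnajc6 (0.837; 538 reads) and Dnajb12 (0.878; 204 reads), and BM_4 was lowest for Dnajc19 (0.981; 229 reads) and highest for Dnajb2 (0.839; 28 reads). In small intestine SI_10 was lowest for Hspa5 (0.9; 9177 reads), and without SI_10 the difference of Hspa5 passed the threshold (-0.34, limma adjusted p = 0.014). SI_7 was highest for Hspb9 (0.951; 13 reads against 4 in each other library), SI_6 lowest for Hspa2 (0.861; 62 reads), and SI_11 highest for Dnajc4 (0.938; 130 reads) and Dnajc27 (0.874; 158 reads).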

How the results depend on the processing

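Of 38 called genes, 26 kept their call and direction in all of 16 alternative settings that tested them, 6 of the 13 higher and 20 of the 25 lower. Centring on the median of all genes gave 7 higher and 40 lower. Of the 38 called genes it turned the sign of Dnajc8 only, and it turned that of the partner Hsf1 (-0.30, limma adjusted p = 0.634). Many family genes that were not called changed sign too, among them Dnajb9 (-0.70, adjusted p = 0.246), Dnaja2, Dnaja4, Dnajb3, Dnajb7, Dnajb8, Dnajc1 and Dnajc4. The same held for Dnajc5b, Dnajc7, Dnajc14, Dnajc19, Dnajc21, Dnajc27, Hspa4l, Hspa12a, Hspa13, Hspb2 and Hspb3. In that setting Dnaja1, Dnajb4, Dnajb5, Dnajb6 and Hspbap1 lost their calls, and Atf4 and Ddit3 did too. The median of all genes lies among genes with few reads. For Dnajb4, Dnajb5, Dnajb6, Dnajc8 and Hspbap1 it was the only setting that ended the call. Dnaja1 also lost its call under quantile normalisation and under centring on the genes with at least 10 reads (adjusted p = 0.106 and 0.0514). Leaving out 1 library at a time gave 13 to 14 higher and 21 to 28 lower. Leaving out BM_5 and SI_6 together, chosen after seeing the data, gave 13 and 28. Other settings gave 10 to 15 higher and 27 to 33 lower. The cause was not tested. Calls lost without 1 library were those of Dnajb1, Hspe1, Dnajc10, Hspb9, Hsbp1 (adjusted p = 0.052 without BM_1) and Hsf1 (0.064 without BM_4). No paired analysis was possible because the tissues share no replicate number. Depth limits the 10 genes under 10 reads.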
